A study of Mus musculus with 12 samples.

Results

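The genes described here are 45 genes of the actin machinery that drives phagocytosis, taken by symbol from the count table of the study. All 45 were found among its 24421 symbols, and all 45 passed the filter on low counts, which kept 11468 genes. The cells were macrophages (BMDMs) grown from bone marrow of wild-type C57BL/6 mice for 5 days in 100 ng/mL M-CSF, the growth factor that turns marrow progenitors into macrophages, with fresh medium on day 3. The cells were exposed for at least 4 h to I-BET151 (iBET, 5.0 µM), an inhibitor of the BET bromodomain proteins that read acetylated histones, or to its vehicle DMSO. The labels give the DMSO as 5%. The paper states 5% only for the solution injected into mice and no DMSO level for cultured cells, so the level here is uncertain. The stimulus was ovalbumin (Ova) or ovalbumin bound by IgG in an immune complex (IC). This gave the 4 groups DMSO Ova, DMSO IC, iBET Ova and iBET IC, each with 3 libraries, and mice A, B and C gave 1 library to each group, so that the groups share their animals. No group was free of both DMSO and iBET, and the sources differ on whether drug and stimulus were added together or the drug came first. These were cultured cells measured in bulk, so that fewer cells making a transcript and less transcript per cell cannot be told apart.

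When IgG-coated material binds Fcγ receptors, a macrophage pushes its membrane around the particle by assembling branched actin. Small GTPases switch on WASP and WAVE proteins, which in turn activate the Arp2/3 complex to start new filaments on the sides of old ones. Formins and Ena/VASP proteins then lengthen filaments, cofilin, coronins and gelsolin take them apart, and talin, vinculin, ezrin-type linkers and myosins tie them to the membrane and pull. Many actin genes are controlled by serum response factor (SRF), whose cofactors of the MRTF family sense the pool of free actin monomers, and SRF binds a short element named the CArG box.

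Libraries held 7549849 to 17387639 counts. The DMSO Ova library of mouse A stood apart, because 77.4% of its counts fell on Rn45s, the precursor of ribosomal RNA, against 1.41 to 7.83% in the other 11 libraries, and this left it with 1768133 counts outside that gene. Counts of calls among the 45 genes that rest on DMSO Ova are therefore also given without it, with each gene whose call changed. For the other gene lists, only the total counts of iBET with Ova are given without it. Overlaps between contrasts, counts at an unadjusted p and most counts by role are given with it only. Macrophage markers were present throughout (6 of 6 detected, summed level 5753 to 7820 CPM over all libraries), whereas B cell, T cell, dendritic cell and fibroblast lists summed to at most 2.05 CPM and the erythroid and mast cell lists were at 0 in every library. The 4 neutrophil markers were mostly S100a9, with Mpo and Elane near 0, and summed to 5.65 to 33.5 CPM in DMSO Ova, 6.90 to 27.8 in DMSO IC, 8.49 to 32.8 in iBET Ova and 8.43 to 26.1 in iBET IC. The 45 genes together took 4.80 ± 0.60% (SD, n = 3) of the counts outside Rn45s in DMSO Ova, 5.00 ± 0.51% in DMSO IC, 5.47 ± 0.27% in iBET Ova and 5.91 ± 0.24% in iBET IC. The DMSO Ova mean is lowered by mouse A's library, at 4.11%, against 5.11% in mouse B and 5.18% in mouse C. The iBET Ova libraries lay between 5.22 and 5.75%. The sum also leans on the most abundant gene. Actb alone took 1.18% (mouse A), 1.67% (mouse B) and 1.70% (mouse C) in DMSO Ova and 2.07 to 2.20% in iBET IC. Counts of 5 genes, Actg1, Actr3, Arpc1b, Arpc2 and Cfl1, are uncertain because each has at least 1 gene or pseudogene elsewhere with 95% identity or more over 300 bases. Exons of 20 of the 45 genes overlap those of a gene on the opposite strand, among them Vcl, Plek, Zyx, Ezr, Cfl1, Coro1a, Coro1b, Evl and Fmnl1, which were called under iBET. Exons of 4 genes (Actg1, Arpc4, Arpc5l and Coro1b) overlap a gene on the same strand. How reads with several matches were counted, and whether strand was used, was not given in the sources used here.

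The promoters below are those with the sequence element that links actin genes to SRF, and that of the gene with the deepest fall under iBET. RefSeq (GRCm38.p6) promoters of 300 bases, running from 250 bases before to 50 after the start site, were found for 38 of the 45 genes (48 promoters). None was available for Actb, Arpc5l, Rac1, Nckap1l, Cyfip1, Cotl1 and Coro1b, so these genes were not searched. A CArG box was present in 5 of these 48 (10.4%), against 535 of all 32851 promoters in the table (1.63%). The 5 were those of Actg1, Vcl, Myo1e and Arpc4 and 1 of the 2 Myl6 promoters. The match is a description of the letters, and the palindromic pattern was searched once since it reads alike on both strands. Capitals mark the CArG box, whose first base lay at -90 in Actg1 (chr11:120348446-120348745, minus strand), at -227 in Vcl (chr14:20929148-20929447, plus strand), at -50 in the second Myl6 promoter (chr10:128492960-128493259, minus strand), at -32 in Myo1e (chr9:70207100-70207399, plus strand) and at -250 in Arpc4 (chr6:113377863-113378162, plus strand), counted on the gene's own strand from the start site. The promoter of Fmnl1 (chr11:103170888-103171187, plus strand) held no match to this pattern.
Actg1: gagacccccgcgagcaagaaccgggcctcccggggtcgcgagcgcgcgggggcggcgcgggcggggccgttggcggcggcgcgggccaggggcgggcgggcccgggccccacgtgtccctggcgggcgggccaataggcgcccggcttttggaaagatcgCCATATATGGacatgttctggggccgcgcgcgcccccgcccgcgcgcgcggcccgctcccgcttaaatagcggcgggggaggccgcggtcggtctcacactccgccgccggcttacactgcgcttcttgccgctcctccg
Vcl: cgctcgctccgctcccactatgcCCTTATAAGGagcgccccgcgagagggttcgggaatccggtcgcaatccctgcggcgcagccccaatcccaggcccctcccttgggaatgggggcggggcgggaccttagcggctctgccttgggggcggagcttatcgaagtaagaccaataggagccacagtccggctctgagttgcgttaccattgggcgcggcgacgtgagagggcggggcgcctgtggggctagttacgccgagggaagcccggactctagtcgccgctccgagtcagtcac
Myl6: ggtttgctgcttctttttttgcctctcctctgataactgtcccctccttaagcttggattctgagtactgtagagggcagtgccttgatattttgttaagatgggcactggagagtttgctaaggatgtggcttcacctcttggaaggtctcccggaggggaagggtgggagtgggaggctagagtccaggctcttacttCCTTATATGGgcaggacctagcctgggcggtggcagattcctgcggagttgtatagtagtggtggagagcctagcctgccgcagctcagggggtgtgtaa
Myo1e: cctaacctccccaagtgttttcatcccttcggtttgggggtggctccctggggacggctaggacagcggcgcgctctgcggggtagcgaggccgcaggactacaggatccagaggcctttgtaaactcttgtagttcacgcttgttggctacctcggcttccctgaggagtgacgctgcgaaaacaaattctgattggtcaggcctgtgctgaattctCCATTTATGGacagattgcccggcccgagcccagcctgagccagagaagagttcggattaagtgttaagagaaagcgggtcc
Arpc4: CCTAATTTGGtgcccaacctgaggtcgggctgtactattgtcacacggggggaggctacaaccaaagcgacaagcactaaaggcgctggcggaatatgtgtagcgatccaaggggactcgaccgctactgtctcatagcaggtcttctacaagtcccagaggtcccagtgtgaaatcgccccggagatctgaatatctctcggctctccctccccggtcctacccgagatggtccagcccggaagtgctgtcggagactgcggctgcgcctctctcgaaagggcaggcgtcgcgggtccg
Fmnl1: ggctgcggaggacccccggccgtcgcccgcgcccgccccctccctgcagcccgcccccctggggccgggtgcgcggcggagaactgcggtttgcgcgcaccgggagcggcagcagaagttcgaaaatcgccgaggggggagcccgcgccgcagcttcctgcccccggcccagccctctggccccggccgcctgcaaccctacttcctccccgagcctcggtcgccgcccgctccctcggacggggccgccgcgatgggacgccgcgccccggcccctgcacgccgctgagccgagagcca
Of the 5 genes with the element, Actg1 and Vcl were called higher under iBET with either stimulus and Myl6 with Ova, and Myo1e and Arpc4 were not called in any comparison. Of all genes, 17.1% were called higher with Ova and 19% with IC. Without mouse A's DMSO Ova library, the Ova calls of Actg1 and Myl6 were lost. Whether the element goes with the drug response was not tested.

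Levels were compared between genes as RPKM (CPM per kilobase of annotated exon, CPM being the count scaled to library size). Actb, which encodes cytoplasmic β-actin, was the most abundant of the 45 in DMSO Ova at 4697 ± 611 RPKM (SD, n = 3). It was followed by Tmsb4x, encoding the monomer buffer thymosin β4, at 1652 ± 264, and by Actg1, encoding γ-actin, at 1348 ± 125, the SDs of which overlap. The ratio of Actb to Actg1 was 3.48 ± 0.14 in DMSO Ova, 3.51 ± 0.24 in DMSO IC, 3.46 ± 0.33 in iBET Ova and 2.89 ± 0.25 in iBET IC. Within the Arp2/3 complex, the subunit gene Arpc2 led at 542 ± 18.8 and Actr3 came next at 338 ± 26.2. The pairs of alternative subunits were unequal: Arpc1b exceeded Arpc1a 4.58 ± 1.44 times, and Arpc5 exceeded Arpc5l 22.7 ± 3.10 times in DMSO Ova. The first ratio was 6.22 in mouse A's library, 4.01 in mouse B and 3.51 in mouse C. The size of both ratios depends on annotated exon lengths, 5115 bases for Arpc1b, 2567 for Arpc1a, 2276 for Arpc5 and 4498 for Arpc5l. The haematopoietic WASP gene Was, at 29.7 ± 0.928 RPKM, stood above its ubiquitous relative Wasl, at 5.64 ± 0.512. At the low end in DMSO Ova were Zyx (11.8 ± 0.400), Vcl (8.15 ± 0.710), Wasl and Arpc5l (4.87 ± 0.562). Under iBET, Vcl stood at 18.9 ± 2.02 with Ova and 21.9 ± 1.25 with IC.

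**Figure D1:**
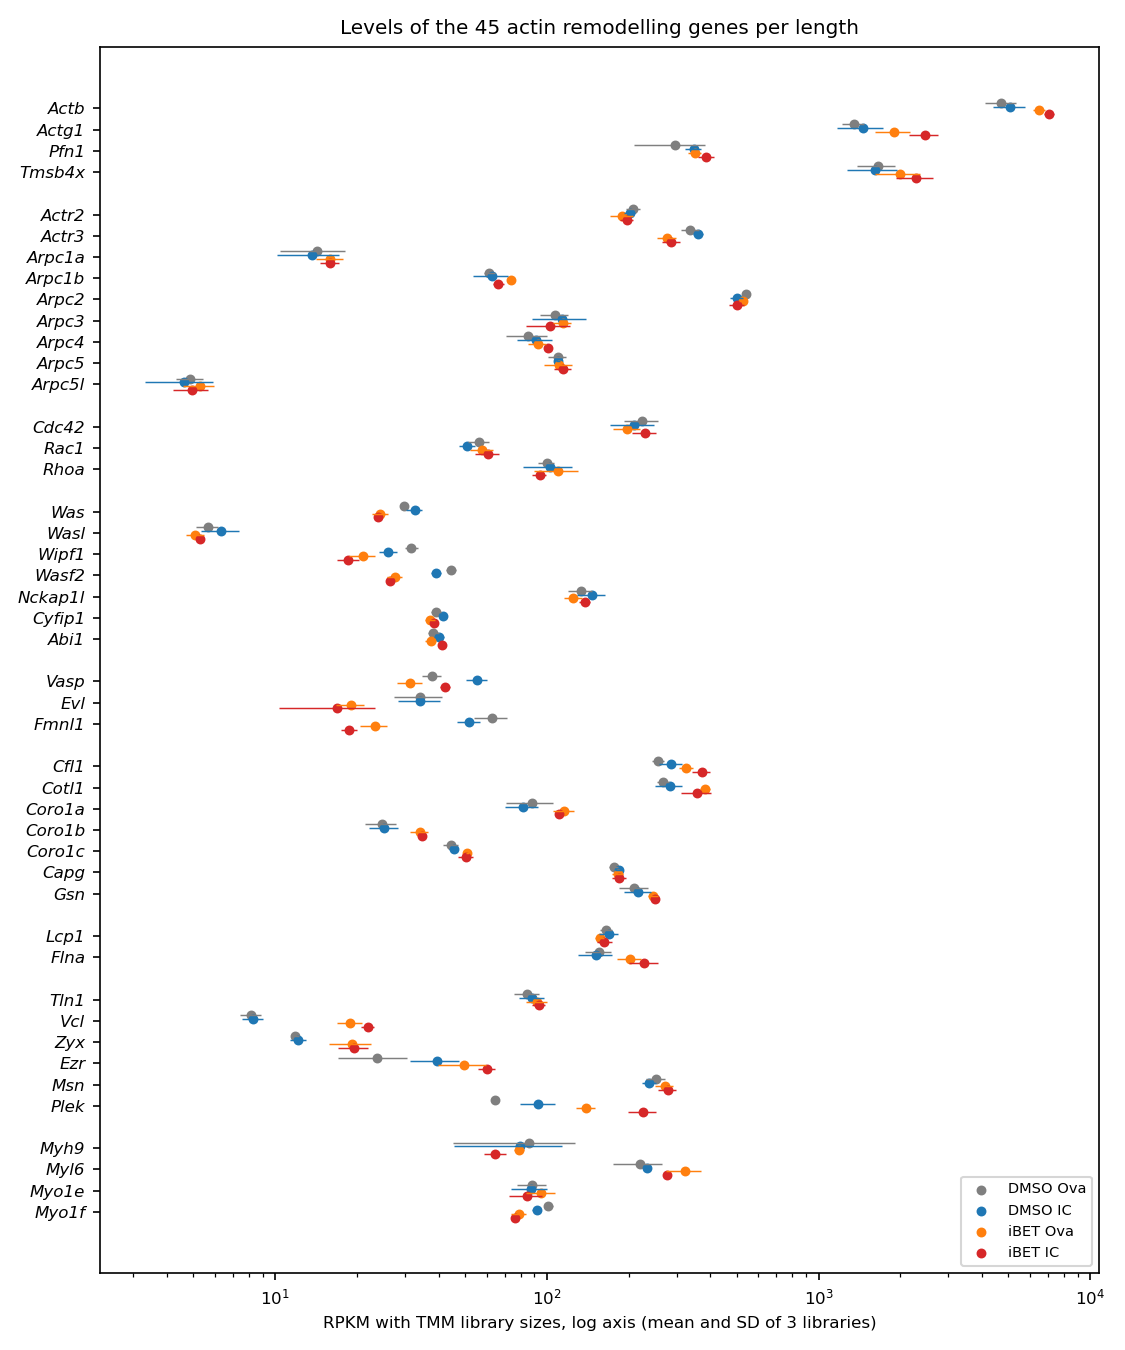
Level of each of the 45 genes in RPKM on a log axis, with 1 point per group for the mean and a bar for the SD of 3 libraries, and genes grouped by role from actin at the top to myosins at the bottom. Levels span from about 4697 for Actb to 4.87 for Arpc5l in DMSO Ova, and the group points of most genes lie on top of each other, with Fmnl1, Vcl and Plek among the exceptions.

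Comparison of iBET with DMSO asks how BET inhibition alters these transcripts by the end of the 4 h stimulus. With Ova, 10 of the 45 genes were higher and 7 lower, against 17.1% and 14.2% of all genes tested (31.3% in either direction). With IC, 11 were higher and 8 lower, against 19% and 15.8% of all genes (34.8% in either direction). Called genes had a p under 0.05 in edgeR's quasi-likelihood test after Benjamini-Hochberg adjustment over all 11468 genes. The 17 and 19 calls among 45 genes were near the share of all genes and somewhat above it, a gap that was not tested. Without mouse A's DMSO Ova library the Ova calls were 12 of 45, against 3378 of 11667 genes, which is not above that share. The drug contrasts with Ova and with IC share no library, though they share the mice, and 9 genes were higher in both, 7 lower in both and 0 called in opposite directions, while 25 were called in neither. The genes called in both made up 94.1% of the Ova calls and 84.2% of the IC calls, against 82.7% and 74.5% over all genes. Over the 45 genes the median log2 fold change was 0.11 with Ova and 0.081 with IC, against 0.019 and -0.0037 over all genes. In each contrast 4 of the called genes changed at least 2-fold.

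Without mouse A's DMSO Ova library, the Ova count changed to 5 higher and 7 lower, against 13.9% and 15.1% of the genes tested in that fit. Cotl1, Vcl, Zyx, Ezr and Plek remained higher. The genes that lost their call on the higher side were Actb (log2 fold change 0.31, adjusted p = 0.106), Actg1 (0.36, 0.149), Cfl1 (0.26, 0.128), Coro1b (0.31, 0.072) and Myl6 (0.35, 0.0559). On the lower side Evl was lost (-0.85, 0.0604) and Vasp was gained (-0.38, 0.0247). Without the iBET Ova library of mouse A there were 11 calls with Ova. Called in each of the 12 fits that left out 1 library were Wipf1, Wasf2, Fmnl1, Myo1f, Cotl1, Vcl, Zyx, Ezr and Plek with Ova, and Was, Wipf1, Wasf2, Evl, Fmnl1, Actg1, Coro1b, Flna, Vcl, Zyx and Plek with IC. Without mouse B, which leaves 2 libraries a group, 5 calls remained with Ova and 7 with IC, and without mouse C 7 and 12. With mouse as a block the counts were 12 higher and 8 lower with Ova, with Coro1a, Flna and Vasp added, and 13 higher and 8 lower with IC, with Tmsb4x and Msn added.

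**Figure D2:**
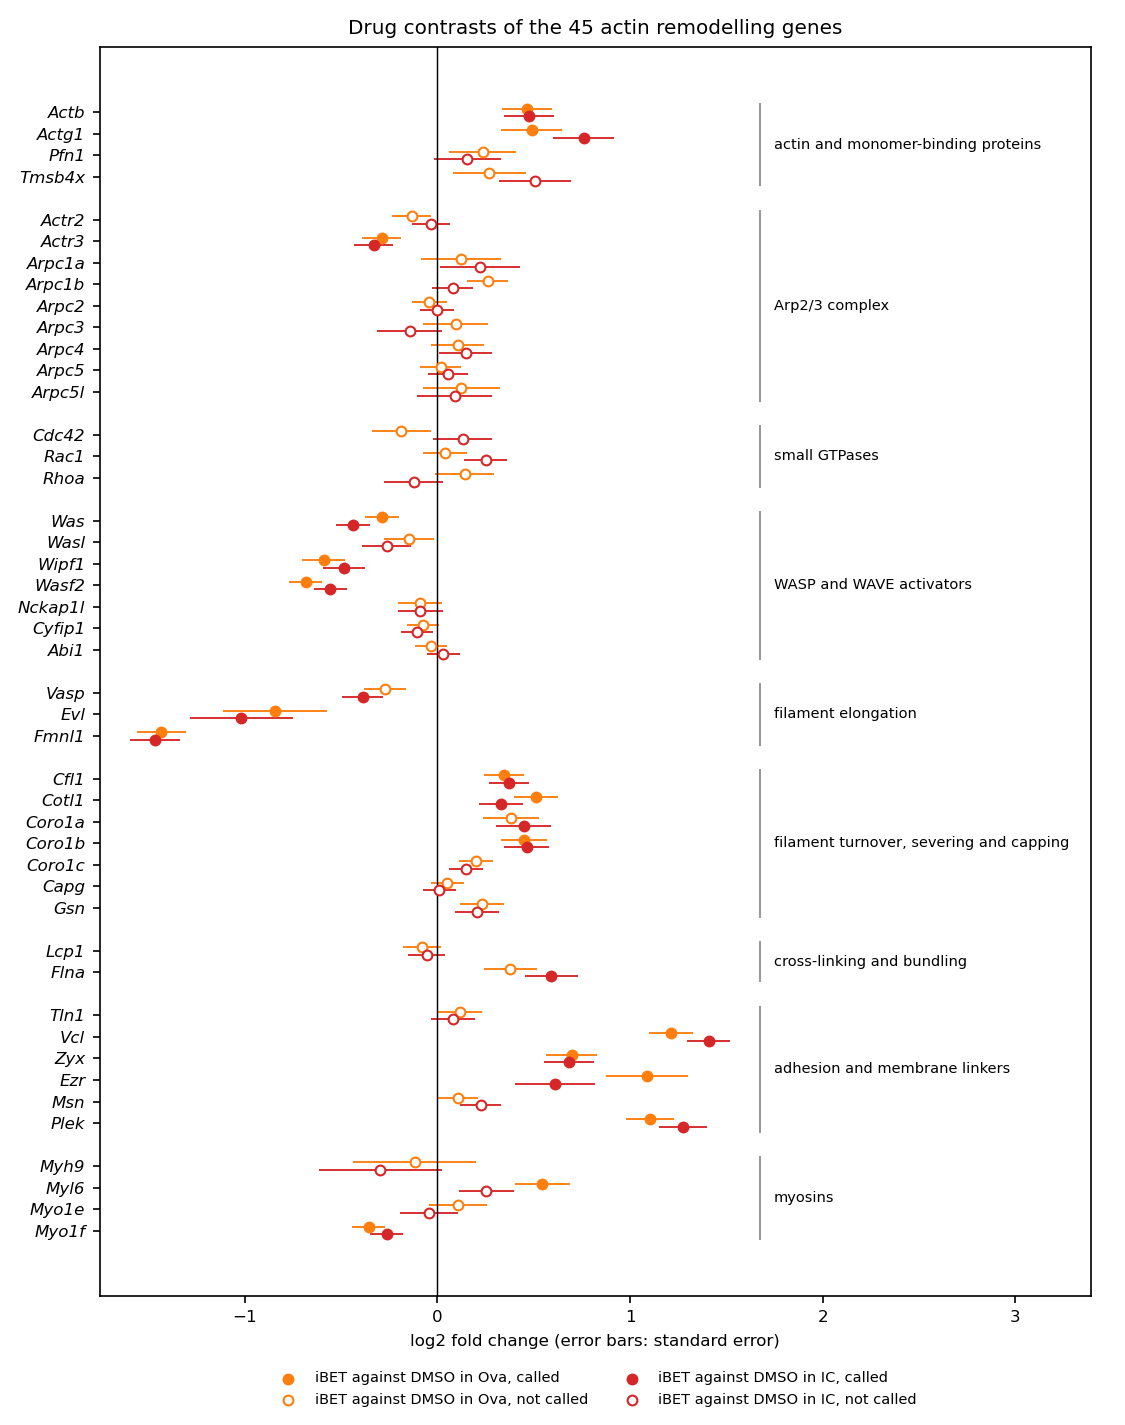
Log2 fold change of iBET against DMSO for each of the 45 genes, with Ova in orange and with IC in red, grouped by role; bars are standard errors and filled points are genes called at an adjusted p under 0.05. Fmnl1 lies farthest to the left at about -1.4 in both contrasts, Vcl and Plek lie above 1 in both, and most Arp2/3 genes and the GTPases sit near 0.

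The actin genes were called higher under iBET, less stably with Ova than with IC. Actb stood at 10699.7, 13393 and 13656 CPM in the DMSO Ova libraries of mice A, B and C, at 11574, 13875 and 15269 in DMSO IC, at 18361, 16564 and 17228 in iBET Ova and at 19526, 18017 and 19104 in iBET IC. The iBET libraries all lay above the DMSO libraries, and within DMSO mouse A was lowest with either stimulus. Actb rose 1.38 times in Ova (log2 fold change 0.47 ± 0.13, adjusted p = 0.0169) and 1.39 times in IC (0.48 ± 0.13, adjusted p = 0.0136). The CPM of Actg1 in mice A, B and C were 3202, 3730.1 and 3816 in DMSO Ova, 3208, 3706 and 4667 in DMSO IC, 5902, 4559 and 4623 in iBET Ova and 7049.9, 5622 and 6925 in iBET IC. The groups compared did not overlap in either drug contrast. Actg1 rose 1.40 times in Ova (log2 fold change 0.49 ± 0.16, adjusted p = 0.0341) and 1.69 times in IC (0.76 ± 0.16, adjusted p = 0.00287). With Ova, both actins lost their call without the DMSO Ova or the iBET Ova library of mouse A, and Actg1 also without that of mouse B or C in DMSO Ova (highest adjusted p = 0.106 and 0.149). The Ova calls of both were also lost without each single mouse and with the compared groups fitted alone. That of Actg1 was lost as well with DESeq2 size factors in edgeR and with the authors' normalized signal in limma. With IC, Actb lost its call without mouse A's DMSO IC library (adjusted p = 0.0818) or without mouse B (0.118). The monomer-binding genes were not called: Pfn1, encoding profilin, had log2 fold changes of 0.23 ± 0.17 in Ova (adjusted p = 0.338) and 0.16 ± 0.17 in IC (adjusted p = 0.522), and Tmsb4x had 0.27 ± 0.19 in Ova (adjusted p = 0.301) and 0.51 ± 0.19 in IC (adjusted p = 0.0535), the latter called with the mouse block (0.045 with IC). Pfn1 in mouse A's DMSO Ova library was at 473 CPM, below the 785 to 985 CPM of the other 11 libraries.

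Of the 9 Arp2/3 genes, only Actr3 was called, and it fell. Of all genes, 31.3% were called with Ova and 34.8% with IC. For Actr3, mice A, B and C gave 1463, 1698 and 1529.8 CPM with DMSO and Ova, 1755, 1639 and 1628 with DMSO and IC, 1378, 1281 and 1179 with iBET and Ova and 1437, 1239 and 1315 with iBET and IC. In each stimulus the 3 iBET libraries lay below the 3 DMSO libraries. Actr3, which encodes one of the actin-related subunits that template the new filament, had log2 fold changes of -0.29 ± 0.10 in Ova (adjusted p = 0.0469) and -0.33 ± 0.10 in IC (adjusted p = 0.0238). The Ova call failed in 9 of the 12 leave-one-library-out fits (highest adjusted p = 0.163, without mouse B in DMSO Ova), and the IC call without mouse A in DMSO IC or mouse B or C in iBET IC (highest 0.0998), and both calls were lost without the low-count filter. Actr2 stood at 1157, 1044 and 1045 CPM in the DMSO Ova libraries of mice A, B and C, at 1068, 1084 and 996 in DMSO IC, at 1077, 991 and 889 in iBET Ova and at 1073, 959.7 and 1041 in iBET IC. The groups overlapped throughout. Actr2, encoding the partner actin-related subunit, had a log2 fold change of -0.13 with Ova (95% interval -0.35 to 0.083) and -0.035 with IC (-0.25 to 0.18). The subunit genes Arpc1a, Arpc1b, Arpc2, Arpc3, Arpc4, Arpc5 and Arpc5l lay between -0.14 (Arpc3 with IC) and 0.26 (Arpc1b with Ova), and none was called. For Arpc2, the most abundant, the interval was -0.24 to 0.15 with Ova and -0.20 to 0.19 with IC.

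None of the 3 small GTPase genes was called under iBET. Beside this stand 31.3% of all genes called with Ova and 34.8% with IC, and the gap was not tested. The CPM of Cdc42 in mice A, B and C were 554, 719 and 726 in DMSO Ova, 504, 733 and 624 in DMSO IC, 651, 589 and 517 in iBET Ova and 710.3, 599.7 and 728 in iBET IC. Cdc42, whose product activates WASP, had log2 fold changes of -0.19 with Ova (95% interval -0.52 to 0.15) and 0.13 with IC (-0.21 to 0.47). Rac1 stood at 248, 232 and 276 CPM in the DMSO Ova libraries of mice A, B and C, at 229, 214 and 244 in DMSO IC, at 286, 255 and 237 in iBET Ova and at 290.2, 241 and 284 in iBET IC. Rac1, whose product activates the WAVE complex, had 0.039 (-0.20 to 0.28) and 0.25 (0.0078 to 0.49), with an adjusted p of 0.102 in the latter. For Rhoa, mice A, B and C gave 807, 721 and 716 CPM with DMSO and Ova, 949, 675 and 679 with DMSO and IC, 715, 764 and 995 with iBET and Ova and 749.8, 667 and 697 with iBET and IC. Rhoa, whose product drives contraction through myosin, had 0.14 (-0.19 to 0.47) and -0.12 (-0.46 to 0.21). The libraries of the groups overlapped for all 3 genes.

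Among the 7 WASP and WAVE genes, 3 fell and 4 were not called in each drug contrast, and 0 rose. Of all genes, 14.2% were called lower with Ova and 15.8% with IC, and the gap was not tested. The CPM of Wasf2 in mice A, B and C were 287, 266 and 281 in DMSO Ova, 236, 256 and 240.2 in DMSO IC, 184, 173 and 162 in iBET Ova and 166, 169 and 163 in iBET IC. Every iBET library lay below every DMSO library. Wasf2, encoding the WAVE2 scaffold of lamellipodia, fell to 0.622 times its DMSO level with Ova (log2 fold change -0.68 ± 0.085, adjusted p = 8.94e-05) and to 0.680 times with IC (-0.56 ± 0.085, adjusted p = 0.000331), and was called without each single library and each single mouse. For Wipf1, mice A, B and C gave 196, 190.1 and 176 CPM with DMSO and Ova, 152, 166 and 143 with DMSO and IC, 137, 124 and 111 with iBET and Ova and 113, 118 and 98.04 with iBET and IC. Here too the groups did not overlap. Wipf1, encoding the WASP-interacting protein that stabilises WASP, changed by -0.59 ± 0.11 in Ova (adjusted p = 0.00155) and -0.48 ± 0.11 in IC (adjusted p = 0.0046). Was stood at 72.4, 71.8 and 68.3 CPM in the DMSO Ova libraries of mice A, B and C, at 82.8, 72.6 and 77.2 in DMSO IC, at 56.5, 54.9 and 62.4 in iBET Ova and at 58.4, 56.9 and 56.1 in iBET IC. The iBET libraries again all lay below the DMSO libraries. Was, encoding WASP itself, changed by -0.29 ± 0.089 in Ova (adjusted p = 0.0272) and -0.44 ± 0.088 in IC (adjusted p = 0.00208), and its Ova call was lost without mouse B in DMSO Ova or mouse A or B in iBET Ova (highest adjusted p = 0.107). Its relative Wasl had -0.15 ± 0.13 in Ova (adjusted p = 0.423) and -0.26 ± 0.13 in IC (adjusted p = 0.127). The remaining WAVE complex genes were near 0, with Nckap1l at -0.091 and -0.089, Cyfip1 at -0.076 and -0.11 and Abi1 at -0.035 and 0.031 with Ova and IC.

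The filament elongation genes held the deepest fall. Fmnl1 stood at 258, 316 and 343 CPM in the DMSO Ova libraries of mice A, B and C, at 237, 239.6 and 282 in DMSO IC, at 113, 101 and 127 in iBET Ova and at 85.8, 90.7 and 98.2 in iBET IC. The highest iBET library was below the lowest DMSO library in both stimuli. Fmnl1, encoding a formin of leukocytes, fell to 0.370 times its DMSO level with Ova (log2 fold change -1.43 ± 0.13, adjusted p = 8.14e-06) and to 0.361 times with IC (-1.47 ± 0.13, adjusted p = 5.69e-06), and was called without each single library and each single mouse. The CPM of Evl in mice A, B and C were 107, 117 and 77.7 in DMSO Ova, 119, 99.6 and 83.5 in DMSO IC, 61.2, 57.7 and 48.6 in iBET Ova and 66.0, 53.8 and 28.5 in iBET IC. The spread between mice was wide, and mouse C was lowest in every group. Evl, encoding an Ena/VASP protein, changed by -0.85 ± 0.27 in Ova (adjusted p = 0.0341) and -1.02 ± 0.27 in IC (adjusted p = 0.0124), and its Ova call failed in 5 of the 12 leave-one-library-out fits (highest adjusted p = 0.117, without mouse B in DMSO Ova). Vasp, the other Ena/VASP gene here, had -0.27 ± 0.11 in Ova (adjusted p = 0.0734) and -0.39 ± 0.11 in IC (adjusted p = 0.0131), and with the mouse block the adjusted p was 0.049 with Ova. The IC call of Vasp was lost without mouse C in DMSO IC or mouse A in iBET IC.

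Of the 7 filament turnover genes, 3 were higher and 0 lower with Ova, and 4 higher and 0 lower with IC. Of all genes, 17.1% were called higher with Ova and 19% with IC, and the gap was not tested. Without mouse A's DMSO Ova library, 1 of the 7, Cotl1, was higher with Ova, against 13.9% of all genes. Cfl1, encoding cofilin, which severs old filaments, had log2 fold changes of 0.35 ± 0.10 in Ova (adjusted p = 0.0233) and 0.37 ± 0.10 in IC (adjusted p = 0.0145), the former lost in 4 of the 12 fits that left out a library and the latter without mouse A in DMSO IC or mouse B in iBET IC (highest adjusted p = 0.0846). Cotl1, encoding the cofilin-like protein coactosin, had 0.51 ± 0.12 in Ova (adjusted p = 0.00502) and 0.33 ± 0.11 in IC (adjusted p = 0.0404), and its IC call failed in 7 of the 12 leave-one-library-out fits (highest adjusted p = 0.162, without mouse A in iBET IC). Coronins bind Arp2/3 branches and help to take them apart, and Coro1b had 0.45 ± 0.12 in Ova (adjusted p = 0.0126) and 0.46 ± 0.12 in IC (adjusted p = 0.009). Coro1a, the coronin of leukocytes, had 0.38 ± 0.14 in Ova (adjusted p = 0.0603) and 0.45 ± 0.14 in IC (adjusted p = 0.0284), with a blocked adjusted p of 0.0221 for Ova. The IC call of Coro1a failed in 5 of the 12 leave-one-library-out fits (highest adjusted p = 0.108, without mouse A in DMSO IC). Coro1c (0.20 and 0.15), the severing protein gene Gsn (0.23 and 0.20) and the capping protein gene Capg (0.050 and 0.0084) were not called. The lowest Coro1b library was the DMSO Ova library of mouse A at 67.3 CPM, followed by the DMSO IC library of the same mouse at 69.7. Of the cross-linkers, Flna, encoding filamin A, had 0.38 ± 0.14 in Ova (adjusted p = 0.0541) and 0.59 ± 0.14 in IC (adjusted p = 0.00543), called with the mouse block in Ova (0.00494), and Lcp1, encoding the bundling protein L-plastin, had -0.081 and -0.056 and was not called.

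Adhesion and membrane linker genes held the largest rises, with 4 of 6 higher and 0 lower in each drug contrast. Of all genes, 17.1% were called higher with Ova and 19% with IC, and the gap was not tested. Vcl stood at 64.2, 62.7 and 73.4 CPM in the DMSO Ova libraries of mice A, B and C, at 61.7, 67.4 and 73.9 in DMSO IC, at 174, 148 and 143 in iBET Ova and at 174, 173 and 192 in iBET IC. All iBET libraries lay far above all DMSO libraries. Vcl, encoding vinculin, which couples talin to actin at adhesions, rose 2.32 times in Ova (log2 fold change 1.21 ± 0.11, adjusted p = 1.01e-05) and 2.66 times in IC (1.41 ± 0.11, adjusted p = 2.63e-06). For Plek, mice A, B and C gave 285, 283 and 302 CPM with DMSO and Ova, 351, 430.4 and 471 with DMSO and IC, 674, 575 and 619.7 with iBET and Ova and 896, 1009 and 1130.5 with iBET and IC. Plek, encoding pleckstrin, a membrane-binding substrate of protein kinase C in blood cells, rose 2.15 times in Ova (log2 fold change 1.10 ± 0.13, adjusted p = 4.58e-05) and 2.42 times in IC (1.28 ± 0.13, adjusted p = 1.34e-05). The CPM of Zyx in mice A, B and C were 65.2, 64.7 and 61.3 in DMSO Ova, 69.9, 61.6 and 65.0 in DMSO IC, 124, 93.9 and 91.5 in iBET Ova and 118, 91.3 and 107 in iBET IC. Zyx, encoding the adhesion protein zyxin, rose 1.62 times in Ova (log2 fold change 0.70 ± 0.13, adjusted p = 0.00167) and 1.61 times in IC (0.69 ± 0.13, adjusted p = 0.00146). Vcl, Plek and Zyx were called in both contrasts without each single library and each single mouse. Ezr stood at 102, 58.0 and 74.9 CPM in the DMSO Ova libraries of mice A, B and C, at 156, 103 and 129.5 in DMSO IC, at 129.6, 166 and 195 in iBET Ova and at 204, 208 and 182 in iBET IC. Ezr, encoding the membrane linker ezrin, rose 2.12 times in Ova (log2 fold change 1.09 ± 0.21, adjusted p = 0.00232) and 1.53 times in IC (0.61 ± 0.21, adjusted p = 0.0375), and the IC call failed in 6 of the 12 leave-one-library-out fits (highest adjusted p = 0.121, without mouse B in DMSO IC). Its relative Msn, encoding moesin, stood at 252 ± 20.03 RPKM in DMSO Ova against 23.8 ± 6.70 for Ezr, and had 0.11 ± 0.10 in Ova (adjusted p = 0.468) and 0.22 ± 0.10 in IC (adjusted p = 0.117). Tln1, encoding talin, the partner of vinculin, had 0.11 with Ova (95% interval -0.14 to 0.37) and 0.081 with IC (-0.17 to 0.33). The RPKM of Vcl was 0.131 ± 0.015 of that of Fmnl1 in DMSO Ova and 0.160 ± 0.0072 in DMSO IC, against 0.823 ± 0.13 in iBET Ova and 1.17 ± 0.038 in iBET IC (SD, n = 3).

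Of the 4 myosin genes, Myo1f fell in both drug contrasts and Myl6 rose with Ova. The share of all genes called was 31.3% with Ova and 34.8% with IC, and no gap from it was tested. The CPM of Myo1f in mice A, B and C were 512, 517 and 483 in DMSO Ova, 439, 469.8 and 457 in DMSO IC, 421, 374 and 384 in iBET Ova and 390.2, 378 and 369 in iBET IC. Myo1f, encoding a long-tailed class I myosin of leukocytes, changed by -0.36 ± 0.085 in Ova (adjusted p = 0.00678) and -0.26 ± 0.084 in IC (adjusted p = 0.0286). The IC call failed in 5 of the 12 leave-one-library-out fits (highest adjusted p = 0.0984, without mouse C in iBET IC). For Myl6, mice A, B and C gave 545, 826 and 733 CPM with DMSO and Ova, 757, 736 and 733 with DMSO and IC, 889.9, 994 and 1191 with iBET and Ova and 883, 889 and 881 with iBET and IC. Myl6, encoding the essential light chain of non-muscle myosin, had 0.54 ± 0.14 in Ova (adjusted p = 0.0126) and 0.25 ± 0.14 in IC (adjusted p = 0.193). Its DMSO Ova values ranged from 545 to 826 CPM with mouse A lowest, and the Ova call was lost without that library or without mouse C in iBET Ova, whereas the iBET IC values lay between 881 and 889. Myh9, encoding the heavy chain of non-muscle myosin IIA, was not called, with -0.12 ± 0.32 in Ova (adjusted p = 0.812) and -0.30 ± 0.32 in IC (adjusted p = 0.502). Both DMSO libraries of mouse A were high for Myh9, at 1723 and 1532 CPM, while the other DMSO libraries lay between 731 and 818, and the 95% interval with Ova was -0.82 to 0.58. Myo1e, encoding a class I myosin of phagocytic cups, had 0.11 and -0.045.

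**Figure D3:**
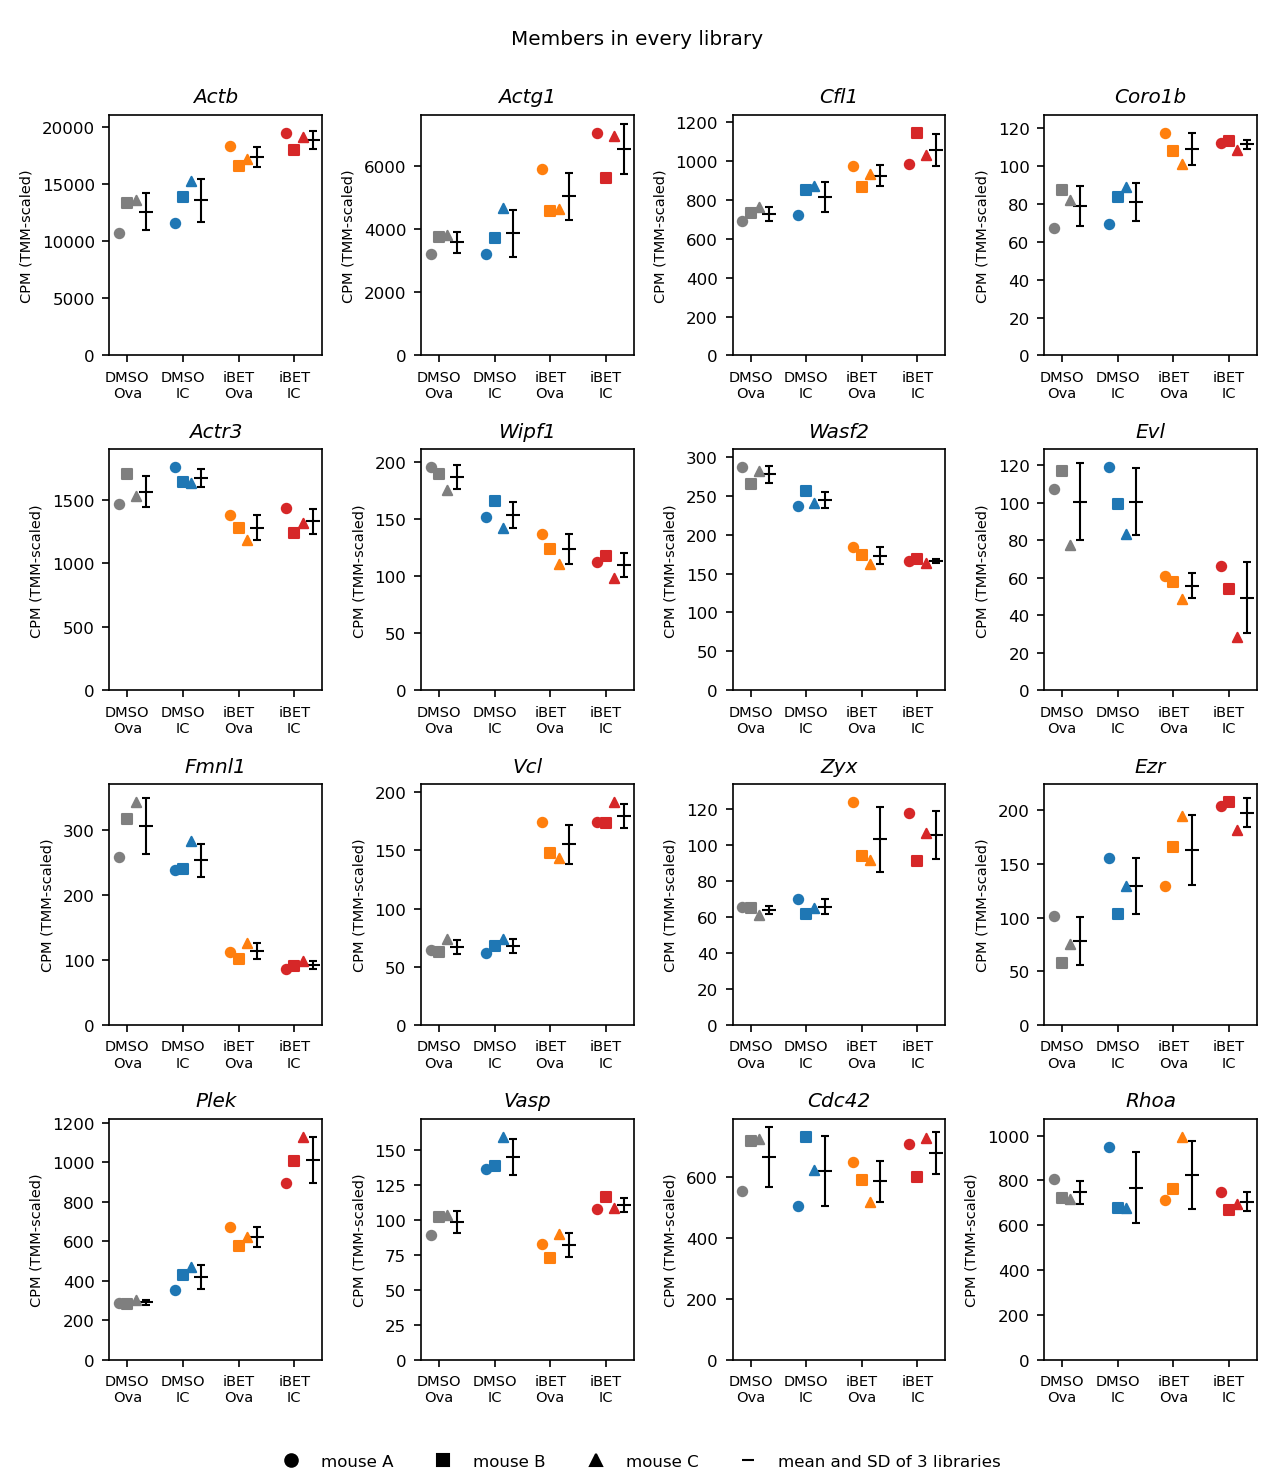
CPM in every library for 16 of the genes, with 1 panel per gene, the 4 groups on the x axis, marker shapes for mice A, B and C, and a dash with bar for the mean and SD of 3 libraries; each y axis starts at 0. Fmnl1, Wasf2 and Vcl separate iBET from DMSO in every library, the Plek libraries with IC lie above those with Ova within each drug arm, and Cdc42 and Rhoa overlap between groups.

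Comparison of IC with Ova asks what immune complexes add at 4 h. In DMSO, 1 of the 45 genes was higher and 0 lower, against 0.732% and 0.488% of all genes. In iBET, 1 was higher and 0 lower, against 0.314% and 0.0349% of all genes. At an unadjusted p under 0.05 there were 6 genes in DMSO (Vasp, Plek and Ezr higher, Wipf1, Wasf2 and Fmnl1 lower) and 4 in iBET (Vasp, Plek and Actg1 higher, Fmnl1 lower), against 11.7% and 7.5% of all genes. DESeq2 called Vasp, Plek and Ezr higher in DMSO and Vasp and Plek in iBET, out of 270 and 103 genes it called in all. For Vasp, mice A, B and C gave 89.4, 102 and 104 CPM with DMSO and Ova, 137, 139 and 159.9 with DMSO and IC, 82.9, 72.8 and 90.0 with iBET and Ova and 108, 116 and 108 with iBET and IC. The IC libraries lay above the Ova libraries within each drug arm. Vasp, whose product lengthens filaments at the leading edge, rose 1.47 times in DMSO (log2 fold change 0.55 ± 0.11, adjusted p = 0.0305), and had 0.44 ± 0.11 in iBET (adjusted p = 0.161), higher in 3 of 3 mice each. Plek, whose values are given above, rose 1.62 times in iBET (0.70 ± 0.12, adjusted p = 0.0313), and had 0.53 ± 0.12 in DMSO (adjusted p = 0.0702, or 0.0247 with the mouse block, which makes 2 calls in DMSO). Ezr, higher in DMSO IC than in DMSO Ova in 3 of 3 mice, had 0.75 ± 0.21 (adjusted p = 0.136) and 0.28 ± 0.21 in iBET (adjusted p = 0.839). Without mouse A's DMSO Ova library, Ezr was called in DMSO (0.94, adjusted p = 0.0445) and Vasp was not (0.47, adjusted p = 0.0874). The calls of Vasp and of Plek each failed in 9 of the 12 leave-one-library-out fits, with highest adjusted p of 0.117 (without mouse C in DMSO IC) and 0.26 (without mouse B in iBET Ova). The remaining fits left out mouse B or C in iBET Ova or mouse A in DMSO IC for Vasp, and mouse A in DMSO Ova or mouse A or C in DMSO IC for Plek. IC in DMSO and iBET with Ova are measured against the same DMSO Ova libraries.

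The actins, the Arp2/3 genes and the GTPases were not called for IC in either arm. Actb had a log2 fold change of 0.11 in DMSO (95% interval -0.17 to 0.39) and 0.12 in iBET (-0.16 to 0.40), and Actg1 had 0.11 (-0.24 to 0.45) and 0.38 (0.032 to 0.72). Among the Arp2/3 genes the values ran from -0.15 (Arpc1b in iBET) to 0.13 (Arpc4 in iBET). Cdc42 had -0.10 and 0.21, Rac1 -0.14 and 0.069, and Rhoa 0.039 and -0.23 in DMSO and iBET. The lowest values belonged to Wipf1 in DMSO (-0.28, adjusted p = 0.311) and Fmnl1 in iBET (-0.31, adjusted p = 0.588), both lower in 3 of 3 mice and not called. The median over the 45 genes was 0.035 in DMSO and 0.032 in iBET, against -0.010 and -0.011 over all genes.

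**Figure D4:**
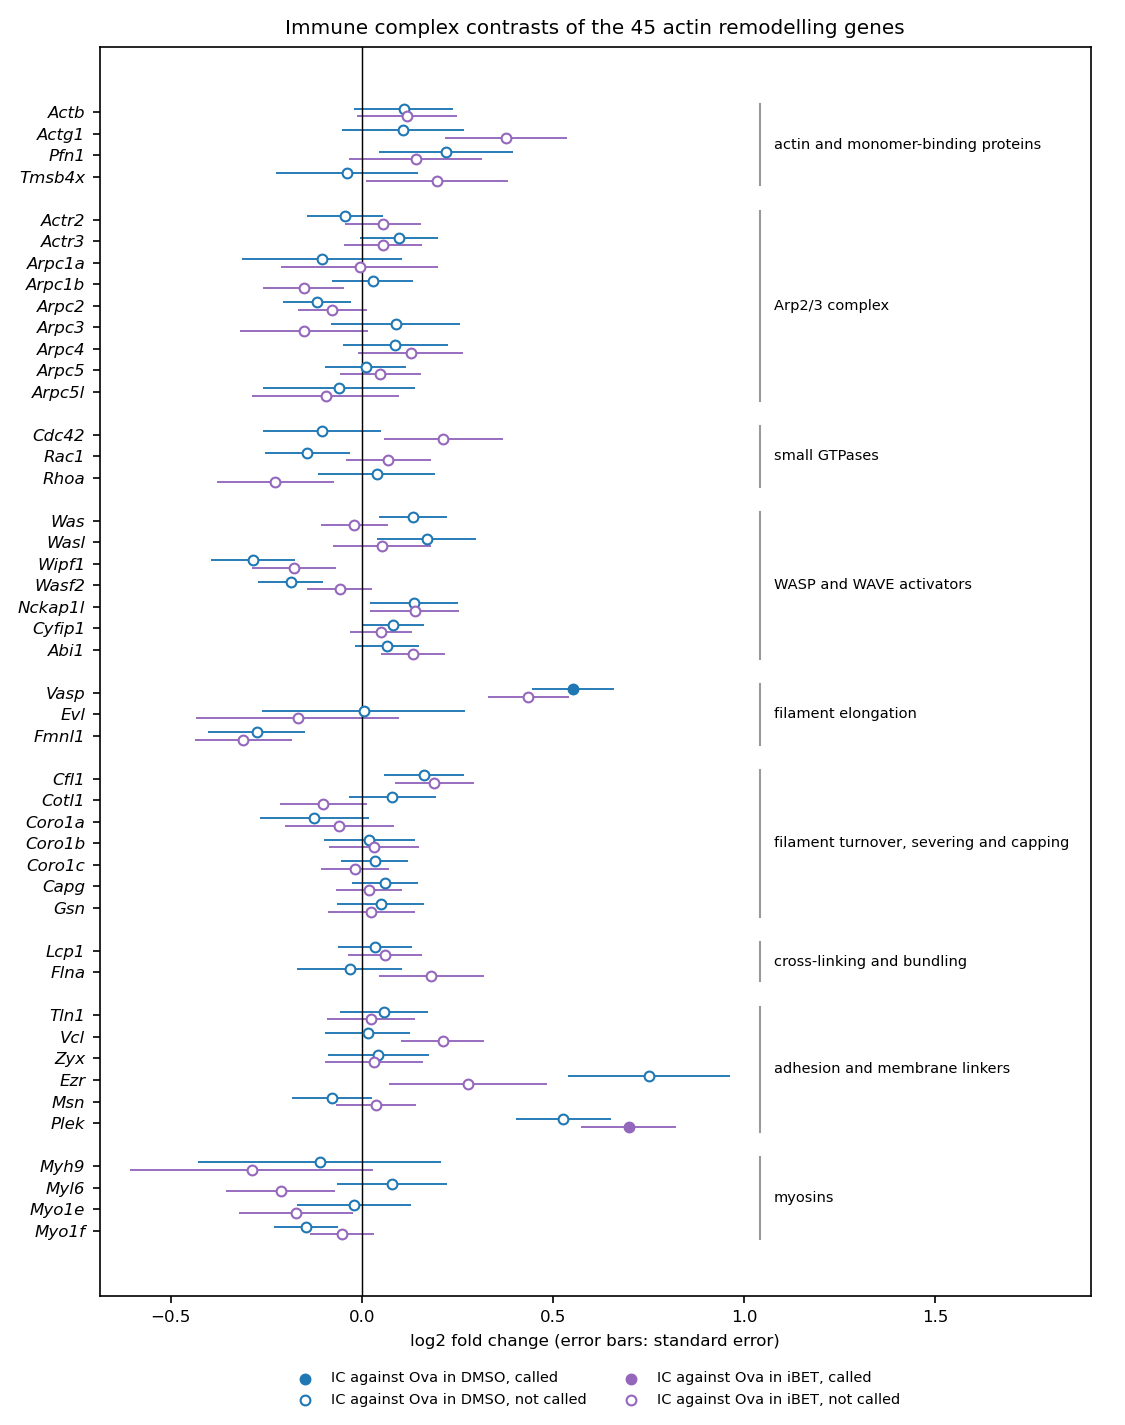
Log2 fold change of IC against Ova for each of the 45 genes, in DMSO in blue and in iBET in purple, grouped by role; bars are standard errors and filled points are called genes. Vasp in DMSO and Plek in iBET are the only filled points, and Ezr in DMSO, at 0.75 and not called, lies farthest to the right.

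The interaction asks whether the IC response differed between iBET and DMSO. In edgeR 0 of the 45 genes were called (0% of all genes), 0 had an unadjusted p under 0.05 (2.55% of all genes), and DESeq2 also called 0 of them. The smallest unadjusted p was 0.134, for Ezr, with a log2 difference of -0.47 (95% interval -1.12 to 0.17). For Vasp the difference was -0.12 (-0.44 to 0.21) and for Plek 0.17 (-0.21 to 0.55), so the single calls above are not shown to belong to one drug arm. The same holds for Myl6, called under iBET with Ova and not with IC, at -0.29 (-0.73 to 0.15).

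Other actin regulators outside the 45 were taken from a list of 74 symbols, of which 72 were matched in the count table and 68 tested. With Ova 12 were higher and 14 lower under iBET, and with IC 11 were higher and 13 lower, beside 17.1% and 14.2% of all genes with Ova and 19% and 15.8% with IC. Without mouse A's DMSO Ova library the Ova counts were 11 and 15 of 70 tested, beside 13.9% and 15.1%. Rhob stood at 41.1, 45.1 and 44.2 CPM in the DMSO Ova libraries of mice A, B and C, at 30.5, 43.0 and 38.7 in DMSO IC, at 103, 89.1 and 98.2 in iBET Ova and at 104, 98.3 and 128 in iBET IC. Rhob, encoding a small GTPase of the immediate-early class, rose 2.22 times in Ova (log2 fold change 1.15 ± 0.14, adjusted p = 7.30e-05) and 2.94 times in IC (1.56 ± 0.14, adjusted p = 6.08e-06). The CPM of Ssh2 in mice A, B and C were 104, 83.4 and 92.4 in DMSO Ova, 52.4, 53.3 and 55.0 in DMSO IC, 201, 197 and 219.5 in iBET Ova and 162, 154 and 170.3 in iBET IC. Ssh2, encoding the slingshot phosphatase that switches cofilin on, rose 2.22 times in Ova (log2 fold change 1.15 ± 0.099, adjusted p = 6.43e-06) and 3.03 times in IC (1.60 ± 0.10, adjusted p = 4.80e-07). Ssh2 fell with IC in DMSO, by 0.79 ± 0.10 on the log2 scale (adjusted p = 0.00234). Of the genes that fell, Dock10, encoding an exchange factor for small GTPases, fell to 0.428 times its DMSO level with Ova (log2 fold change -1.22 ± 0.085, adjusted p = 1.49e-06) and to 0.440 times with IC (-1.19 ± 0.085, adjusted p = 1.32e-06). For Dock10, mice A, B and C gave 241, 241 and 261 CPM with DMSO and Ova, 273, 263 and 275 with DMSO and IC, 113, 100.4 and 105 with iBET and Ova and 121, 115 and 119.6 with iBET and IC. Abi3, a WAVE complex relative of Abi1, fell by 1.90 ± 0.30 on the log2 scale with Ova (adjusted p = 0.000443) and by 1.55 ± 0.29 with IC (adjusted p = 0.00145). Nckap1, the relative of Nckap1l, fell by 1.12 ± 0.26 (adjusted p = 0.00646) and 1.44 ± 0.25 (adjusted p = 0.000863), both genes at group means of at most 10.2 CPM. The shares of all genes given above also stand beside the counts by role, which are of few genes and were not tested. GTPase signalling genes on this list gave 2 higher and 4 lower of 23 with either stimulus. Nucleation and elongation factors gave 1 higher and 4 lower of 9 with Ova and 1 and 3 with IC. Turnover and capping genes gave 3 higher and 1 lower of 13 with Ova and 3 and 2 with IC. Cross-linking and adhesion genes gave 5 higher and 1 lower of 13 with either stimulus, and myosins and tropomyosins 1 higher and 4 lower of 10 with Ova and 0 and 3 with IC. For IC against Ova, 0.732% of all genes rose and 0.488% fell in DMSO, and 0.314% rose in iBET. Of the 68, 1 rose and 2 fell in DMSO and 1 rose in iBET. These were named after their values were seen: Marcksl1, encoding a MARCKS-family actin and membrane linker, rose in DMSO (1.00 ± 0.12, adjusted p = 0.00207) and in iBET (0.89 ± 0.12, adjusted p = 0.00565), and Dock8, encoding an exchange factor for Cdc42, fell with Ssh2 in DMSO (-0.45 ± 0.084, adjusted p = 0.0234).

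A list of cytoskeletal genes known as SRF and MRTF targets, with SRF and MRTF themselves, had 18 genes tested, of which 6 (Actb, Actg1, Vcl, Flna, Zyx and Myh9) are among the 45. Under iBET 5 were higher and 3 lower with Ova, and 6 higher and 4 lower with IC, beside the same shares of all genes (17.1% and 14.2% with Ova, 19% and 15.8% with IC). Without mouse A's DMSO Ova library the Ova counts were 3 and 3 of 20 tested, beside 13.9% and 15.1%. Among the 12 outside the 45, 1 was higher and 3 lower with Ova, and 1 higher and 4 lower with IC. The CPM of Pdlim7 in mice A, B and C were 15.4, 17.3 and 23.9 in DMSO Ova, 17.6, 17.2 and 26.4 in DMSO IC, 39.7, 34.8 and 47.4 in iBET Ova and 43.8, 44.3 and 53.3 in iBET IC. Pdlim7, encoding a PDZ and LIM domain adaptor of actin fibres, was the gene that rose, 2.10 times in Ova (log2 fold change 1.07 ± 0.20, adjusted p = 0.00177) and 2.31 times in IC (1.21 ± 0.20, adjusted p = 0.000557). For Tpm1, mice A, B and C gave 202, 111 and 107 CPM with DMSO and Ova, 242, 146 and 129 with DMSO and IC, 68.9, 79.2 and 67.1 with iBET and Ova and 87.6, 81.4 and 62.6 with iBET and IC. Tpm1, encoding a tropomyosin that coats filaments, fell, with -0.94 ± 0.28 in Ova (adjusted p = 0.0252) and -1.16 ± 0.28 in IC (adjusted p = 0.00779), and mouse A was highest in both DMSO groups. Tpm4, another tropomyosin gene, changed by -0.50 ± 0.12 with Ova (adjusted p = 0.00593), and Pdlim5, encoding a relative of Pdlim7, by -0.63 ± 0.12 in Ova (adjusted p = 0.0019) and -0.59 ± 0.12 in IC (adjusted p = 0.00247). Lima1, encoding a filament-stabilising LIM protein, was called lower with IC (-0.63 ± 0.22, adjusted p = 0.0386).

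**Figure D5:**
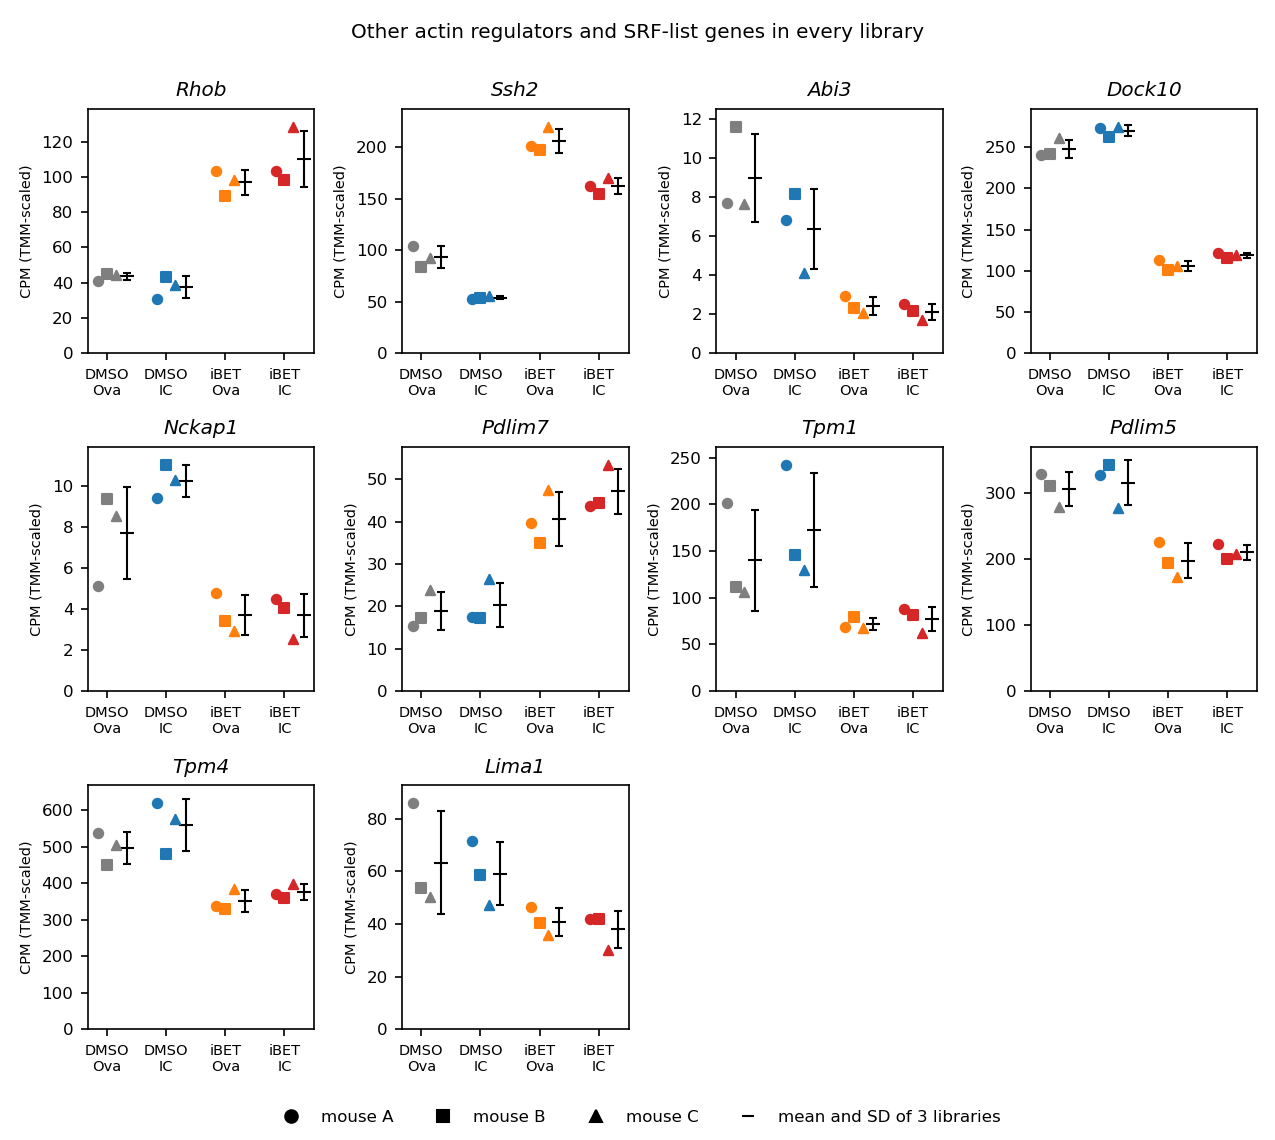
CPM in every library for 10 genes outside the 45, drawn as in the plot of the members, with marker shapes for mice A, B and C and the mean and SD of 3 libraries. Rhob, Ssh2 and Pdlim7 stand higher in iBET and Abi3, Dock10, Nckap1, Tpm1, Pdlim5 and Tpm4 lower, and the Ssh2 libraries with IC lie below those with Ova within each drug arm.

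Over all 12 libraries, the genes whose log2 CPM ran most closely with Fmnl1 were Rin3 (Pearson r = 0.994), Kcnk6 (0.989) and Gna15 (0.988). Those most like Vcl were Hspa5 (0.993), Entpd5 (0.992) and Kctd12 (0.992). These correlations describe the pattern over 12 libraries that share mice and 4 treatments.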

How the data were processed

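RNA was sequenced from 12 libraries of bone marrow-derived macrophages. Per the labels and the study's methods, the authors trimmed reads with Trim Galore, aligned them to mm10 with HISAT2 and assigned them to genes with featureCounts; annotation, strand and reads with several matches were not given in the sources used here. The authors deposited raw counts per gene symbol, which were used for every test. A second deposited table holds a normalized signal, which was checked to equal the counts divided by DESeq2 size factors (largest relative gap 4.89e-15) and was used for 1 alternative, as log2(signal + 1) in limma.

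Counts were fitted in edgeR 4.0.16 (R 4.3.3) with filterByExpr (minimum count 10, 11468 of 24421 symbols kept), TMM factors and 1 robust quasi-likelihood model with a term per group over all 12 libraries. Tests were two-sided, with Benjamini-Hochberg adjustment across the tested genes. Errors of log2 fold changes are standard errors, and intervals are 95%. CPM and RPKM use TMM library sizes, and RPKM uses exon lengths of GENCODE vM21 on GRCm38. At 7549849 to 17387639 counts a library, the lowest count of any of the 45 genes was 45, in a single library. Promoters were RefSeq sequences.

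The 45 genes, the other lists and the tests were chosen with earlier results of these data known. Genes named in full were Actb, Actg1, Actr2, Actr3, Cdc42, Rac1 and Rhoa, plus, per contrast, up to 5 called genes with the largest rise and 5 with the largest fall in 3 of 3 mice. From the other lists, 3 called genes in each direction were named per drug contrast, given a mean count of at least 50, and 1 gene that this rule chose is not reported here. Likeness was ranked for the 2 genes with the largest change.

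The labels give each library a mouse (A, B or C, each in all 4 groups), and directions per mouse compare libraries of the same letter. The main fit has no term for mouse, so its p-values, standard errors and intervals do not use this pairing. Deviations from group means correlated at a median of 0.26 (range -0.072 to 0.54) over 18 pairs of the same mouse and -0.13 over 36 pairs of different mice. Alternatives were other size factors, DESeq2 1.42.0, filters, a mouse block, a surrogate variable (sva 3.50.0), the compared groups alone, limma 3.58.1, removal of Rn45s, a threshold of 0.01, and leaving out each library or mouse. The test was also run on simulated counts with no mouse effect and few genes changed. That setting differs from these data, and its outcome is not used here.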

Additional observations from a re-analysis of the deposited data

Results flagged for a closer look

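Msn, which encodes the membrane linker moesin, was picked out because its IC response had opposite signs in the drug arms in every mouse. This rule looks at signs alone, and the share of all genes that meet it was not counted. It was lower with IC than with Ova in 3 of 3 mice in DMSO and higher in 3 of 3 in iBET. The log2 fold changes were -0.078 ± 0.11 in DMSO and 0.037 ± 0.10 in iBET, neither was called, and the interaction was 0.12 (95% interval -0.21 to 0.44, unadjusted p = 0.449 in edgeR over all genes).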

How the results depend on the processing

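The number of the 45 genes called differed between settings. For IC against Ova in DMSO (1 gene), DESeq2 called 3, the replicate block by mouse 2 in edgeR and 3 in DESeq2, a surrogate variable 3, and the compared groups alone and a threshold of 0.01 called 0. For IC against Ova in iBET (1 gene), DESeq2 called 2, the block in DESeq2 2, a surrogate variable 2 and the threshold of 0.01 called 0. With iBET against DMSO, the Ova count of 17 became 11 with the compared groups alone and 9 at 0.01, and the IC count of 19 became 10 at 0.01. The mouse block gave 20 with Ova and 21 with IC, and 0 for the interaction as before. Without the low-count filter, 4 rather than 7 were lower with Ova.

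Leaving out 1 library gave 0 to 2 calls for IC in DMSO, 0 to 1 for IC in iBET, 11 to 18 for iBET in Ova and 14 to 20 for iBET in IC. Leaving out 1 mouse gave 0 to 3, 0 to 1, 5 to 15 and 7 to 18. Over all genes, IC in DMSO called 140, against 270 in DESeq2, 315 with the block and 5 with the compared groups alone, and IC in iBET called 40, against 103, 85 and 99. Among genes not called, log2 fold changes were followed over all settings only for Actr2, Cdc42, Rac1 and Rhoa in the drug contrasts. Rac1 with Ova (0.039) was -0.0019 with DESeq2 size factors and -0.0060 with the compared groups alone. It ran from -0.076 to 0.17 over fits that left out a library or mouse. Of these genes, the others that crossed 0 in such fits were Rhoa with Ova (-0.047 to 0.27) and with IC (-0.21 to 0.027), Cdc42 with IC (-0.039 to 0.35) and Actr2 with IC (-0.081 to 0.035). Genes that were not followed could cross 0 too. Pfn1 with Ova, above 0 in the main fit, was -0.036 without mouse A's DMSO Ova library. No called gene changed direction in any alternative. Other size factors moved the median of all genes by at most 0.042. The DMSO Ova library of mouse A had 1768133 counts outside Rn45s, the least of the 12, so contrasts with DMSO Ova rest on less depth.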
